A study of Drosophila melanogaster with 6 samples.

Results

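The assembled heterochromatin scaffolds of the Drosophila melanogaster genome build dm3 are XHet, 2LHet, 2RHet, 3LHet, 3RHet and YHet, and all of their 100 bp windows were taken by scaffold name. They came to 92821 of the 1687367 windows in each library: 32888 on 2RHet, 25555 on 3LHet, 25176 on 3RHet, 3689 on 2LHet, 3471 on YHet and 2042 on XHet. Chromosome 4 (13519 windows) and the large arms X, 2L, 2R, 3L and 3R (1190293 windows) served as references. Chromatin came from ovaries of virgin females dissected within 6 h of eclosion, and each of the following groups held 1 library. The su(Hw)f mutant gave a preimmune library, precipitated with serum from before immunisation, and an input library of sheared chromatin with no precipitation. Wild type (Canton S) gave the same pair. The mutant is called f in its sample titles and su(Hw)fv in its strain label, and the gene encodes a zinc finger protein of the gypsy insulator. All groups were fixed in 1.8% formaldehyde, amplified for 15 PCR cycles and selected at about 250 bp. The file headers name the preimmune tracks igG and the input tracks WCE, and the antibody label reads anti-Su(Hw) on every sample. The study asked where Su(Hw) binds in such ovaries, and its immunoprecipitation libraries are not analysed here. The mutant and Canton S are different strains, so mutation and background cannot be told apart in any difference between su(Hw)f and wild type.

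Heterochromatin is the compact chromatin around the centromeres, on most of chromosome 4 and along the whole Y chromosome. It consists of satellite repeats and transposable elements, with islands of single-copy sequence and some genes among them. Repeats cannot be placed uniquely by short reads, and satellite DNA is known to be under-replicated in polyploid cells of the fly, among them the follicle and nurse cells of the ovary. The Y chromosome is absent from normal females. No gene is named here, since the gene table used lies on a later build and places nothing on the dm3 scaffolds.

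The libraries held 20130453 reads (su(Hw)f preimmune), 20596448 (su(Hw)f input), 12173312 (wild-type preimmune) and 13993582 (wild-type input). A 100 bp window of the major arms, chromosome 4 included, held 16.4, 16.9, 9.85 and 11.4 reads on average in the same order. The scaffolds took 1.49% of all reads in su(Hw)f preimmune, 1.15% in su(Hw)f input, 1.90% in wild-type preimmune and 1.48% in wild-type input. Counts were scaled to the reads on the major arms. Ratios carry a 95% exact conditional (Clopper-Pearson) interval that covers counting error only. With 1 library per group there is no replicate check, no test was run, and the spread between animals or preparations is unknown. Neighbouring windows with a read in every library differed by more than counting error: the squared difference was 3.97 to 4.47 times the Poisson value on the 5 scaffolds other than YHet in su(Hw)f preimmune and 2.40 to 2.69 times in su(Hw)f input. It was 3.19 to 3.86 times in wild-type preimmune and 1.67 to 1.92 times in wild-type input outside 2RHet, so single windows are less certain than their intervals.

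Most scaffold windows were empty in every library. Of the 92821 windows, 70.1% held no read in su(Hw)f preimmune, 68.5% in su(Hw)f input, 68.8% in wild-type preimmune and 65.9% in wild-type input. On the large arms these shares were 8.72%, 8.68%, 9.86% and 7.56%, and on chromosome 4 they were 22.8%, 24.9%, 21.1% and 20.1%. The su(Hw)f libraries are the deeper ones, and each left more scaffold windows empty than the wild-type library of its kind. With all libraries thinned to the depth of wild-type preimmune, the scaffolds were empty at 71.6% in su(Hw)f preimmune, 71.2% in su(Hw)f input, 68.8% in wild-type preimmune and 66.7% in wild-type input. In the same order, the thinned shares were 25.2%, 29.7%, 21.1% and 20.9% on chromosome 4. On the large arms they were 9.85%, 10.6%, 9.86% and 7.87%. The excess of empty windows in su(Hw)f was thus also seen on chromosome 4 and, in input, on the large arms.

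**Figure D1:**
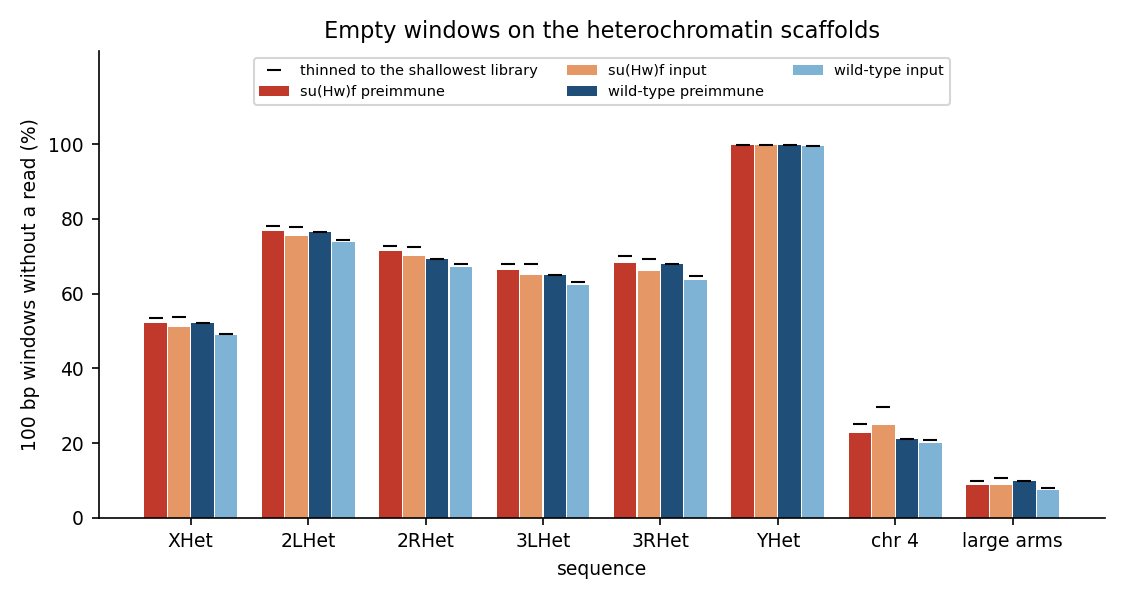
Share of 100 bp windows without a read (vertical axis, percent) by scaffold, with chromosome 4 and the large arms beside them. Bars are the 4 libraries and black dashes the shares after thinning to the shallowest library; YHet is empty at 99.5% or more, 2LHet at 73.7% to 76.7%, XHet at 48.8% to 52.2% and the large arms at 7.56% to 9.86%.

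XHet was the best covered scaffold, with 41.2% of its windows holding a read in all 4 libraries. The autosomal scaffolds lay lower, at 26.5% on 3LHet, 23.0% on 2RHet, 22.8% on 3RHet and 16.7% on 2LHet, against 69.0% on chromosome 4 and 86.4% on the large arms. Coverage fell on much the same places in every library. Of all scaffold windows, 56954 (61.4%) were empty in all 4 libraries, 21522 (23.2%) were covered in all 4 and 14345 (15.5%) were covered in 1 to 3. The windows covered in all 4 held 83.6% to 88.0% of the scaffold reads of each library.

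Windows empty in both libraries of one genotype and covered in both of the other were few. On the scaffolds, 476 windows (0.513%) held reads in both su(Hw)f libraries and in neither wild-type library, and 1362 (1.47%) did the reverse. The large arms had 3370 (0.283%) and 7150 (0.601%) such windows. Chromosome 4 had 30 (0.222%) and 212 (1.57%), so its share covered in wild type alone was near that of the scaffolds. On 2RHet the counts were 112 (0.341%) covered in su(Hw)f alone and 463 (1.41%) in wild type alone. They were 165 (0.646%) and 479 (1.87%) on 3LHet, and 163 (0.647%) and 365 (1.45%) on 3RHet.

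Empty and covered windows alternated on a fine scale. The median stretch empty in all libraries was 200 bp on each scaffold except YHet, and the median covered island, a run of windows with a read in any library, was 200 bp too. On chromosome 4 the median island was 1300 bp. Long gaps were present as well. Those of 10 kb or longer covered 15.4% of 3LHet and 18.1% of 3RHet. All 4 libraries were empty in 57.3% and 57.8% of the windows of those scaffolds. On 2RHet, 28 empty stretches of 10 kb or longer covered 938.4 kb, or 28.5% of the scaffold, and the longest ran from 2645201 to 2764200 (119.0 kb). The longest empty stretch was 79.2 kb on 3LHet (2295401 to 2374600), 76.7 kb on 3RHet (446301 to 523000), 68.7 kb on 2LHet (58001 to 126700) and 43.8 kb on XHet (88501 to 132300). The longest islands were 23.2 kb on 3LHet (590601 to 613800), 18.2 kb on XHet (54901 to 73100) and 16.0 kb on 2RHet (2893501 to 2909500).

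Read level by island length is given as a description only, since sparsely read sequence breaks into short islands by construction. The 3175 islands of 100 to 200 bp averaged 0.167 times the major arm mean in su(Hw)f preimmune, 0.135 in su(Hw)f input, 0.236 in wild-type preimmune and 0.184 in wild-type input. In the 114 islands of 5 kb or longer these levels were 0.734, 0.560, 0.923 and 0.705. Pooled over these long islands, every library thus stayed below its own arm mean, though single regions stood above it. The contrasts between libraries did not follow island length in the same way. Preimmune over input was 1.24 in su(Hw)f and 1.28 in wild type in the shortest islands, and 1.31 in each genotype in the longest. The ratio of su(Hw)f to wild type in input was 0.735 (0.714 to 0.757) in the shortest and 0.795 (0.787 to 0.802) in the longest.

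YHet stood apart as nearly empty. The scaffold held 31 reads in su(Hw)f preimmune, 33 in su(Hw)f input, 26 in wild-type preimmune and 27 in wild-type input over its 3471 windows. Per window, the other 5 scaffolds held 376.3, 278.5, 346.3 and 297.1 times as many in the same order. Only 37 windows had a read in any library, and 4 had at least 3 reads in some library. YHet 215301 to 215400 was the single window with reads in all 4 libraries: 6 in su(Hw)f preimmune, 17 in su(Hw)f input, 17 in wild-type preimmune and 8 in wild-type input. YHet 25301 to 25400 held 14 preimmune reads and 7 input reads in su(Hw)f and 0 in both wild-type libraries, where a count of 0 allows up to 3. The windows 143901 to 144000 and 144001 to 144100 held 3 and 4 reads in su(Hw)f preimmune and 0 elsewhere. All samples are labelled female. No ratio on YHet could be told from 1: preimmune over input was 0.965 (0.572 to 1.63) in su(Hw)f and 1.11 (0.624 to 1.98) in wild type.

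Preimmune chromatin held more scaffold DNA than input in both genotypes. Over the 6 scaffolds, su(Hw)f preimmune held 300314 reads and su(Hw)f input 236652, a scaled ratio of 1.30 (1.30 to 1.31). Wild-type preimmune held 231781 and wild-type input 206544, for which the ratio was 1.30 (1.29 to 1.31). By scaffold, the ratio in su(Hw)f was 1.33 (1.32 to 1.35) on 2RHet, 1.32 (1.31 to 1.34) on 3LHet, 1.28 (1.24 to 1.32) on 2LHet, 1.26 (1.25 to 1.28) on 3RHet and 1.21 (1.18 to 1.24) on XHet. In wild type it was 1.29 (1.28 to 1.30), 1.33 (1.31 to 1.34), 1.25 (1.20 to 1.29), 1.30 (1.28 to 1.31) and 1.17 (1.14 to 1.21) on the same scaffolds. XHet had the lowest ratio of the 5 in each genotype. Without the 1% fullest windows it was level with 2LHet, at 1.31 and 1.30 in su(Hw)f and 1.28 and 1.29 in wild type. Each of the 5 lay below chromosome 4, at 1.58 in su(Hw)f and 1.62 in wild type. The large arms stood at 0.997 and 0.996. Scaled to the median ratio of 1 kb windows of the major arms instead, su(Hw)f preimmune over input shifts by 0.14 on the log2 scale. Its scaffold ratio becomes 1.18 and its large arm ratio 0.905.

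The values of this enrichment in su(Hw)f against wild type moved with the scaling, on the scaffolds and the large arms alike. Scaled to the major arms, the ratio of su(Hw)f to wild type in preimmune over input was 1.01 (0.997 to 1.01) over the 6 scaffolds. It was 1.03 (1.02 to 1.05) on 2RHet and 0.974 (0.958 to 0.989) on 3RHet, where counting error does not reach 1, and 0.997 (0.982 to 1.01) on 3LHet, where it does. Scaled to the median 1 kb ratio, it was 0.924 (0.916 to 0.931) over the 6 scaffolds, 0.949 (0.937 to 0.962) on 2RHet, where the direction turned, 0.916 (0.903 to 0.929) on 3LHet and 0.895 (0.881 to 0.909) on 3RHet, and the large arms stood at 0.920. Whether differences of this size exceed the spread between libraries could not be measured.

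**Figure D2:**
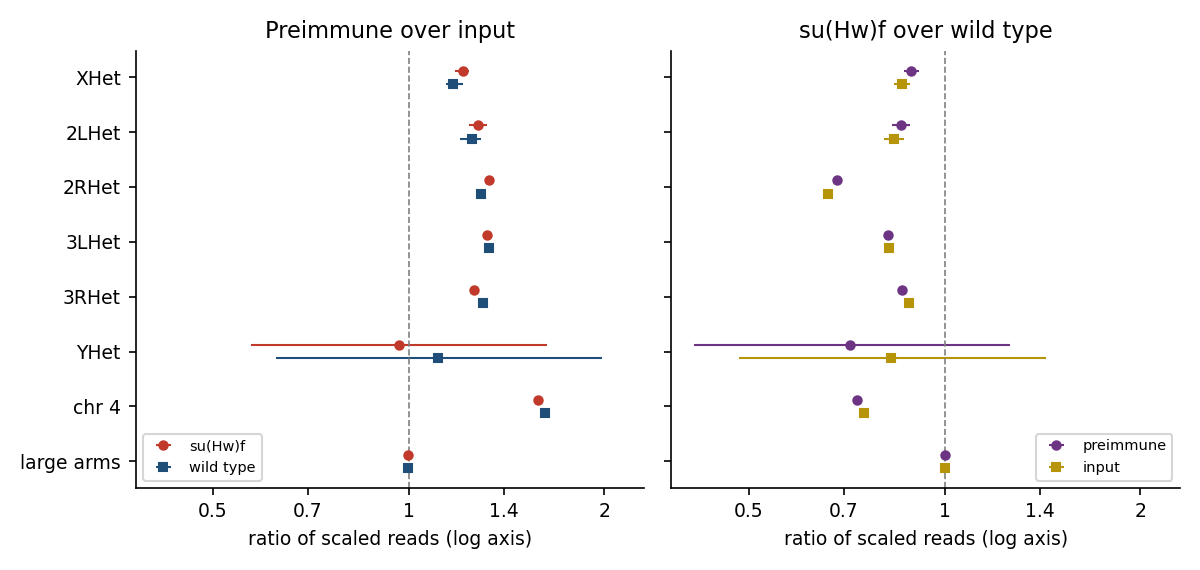
Ratios of scaled reads (horizontal log axis) by scaffold, with preimmune over input on the left and su(Hw)f over wild type on the right. Points are single libraries against each other and bars 95% counting intervals; the 5 scaffolds other than YHet lie at 1.17 to 1.33 on the left and at 0.662 to 0.888 on the right, and the large arms lie near 1 by the scaling.

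The preimmune excess was spread along the scaffolds rather than held by a few places. In blocks of 50 kb with at least 100 counts, preimmune was above input in 161 of 168 blocks in su(Hw)f, with a median ratio of 1.30 and a range of 0.730 to 1.85, and in 154 of 167 blocks in wild type, with a median of 1.31 and a range of 0.743 to 2.49. At 2-fold or more, no block was higher or lower in su(Hw)f, against 0% and 0.0390% of all 50 kb blocks of the major arms and scaffolds. In wild type 1 was higher and none lower, against 0.117% and 0.156%. In su(Hw)f the highest block was 2RHet 2050001 to 2100000, with 833 preimmune reads and 463 input reads (ratio 1.85), where wild type held 565 and 460 (ratio 1.42). In wild type it was 2RHet 1000001 to 1050000, with 401 preimmune reads and 229 input reads in su(Hw)f (ratio 1.80) and 570 and 265 in wild type (ratio 2.49). Blocks high in one genotype tended to be high in the other: over 167 blocks the log2 ratios had Pearson r = 0.71 and Spearman rho = 0.69, with no library in common. The blocks share sequence and read depth between genotypes, so this is a description.

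**Figure D3:**
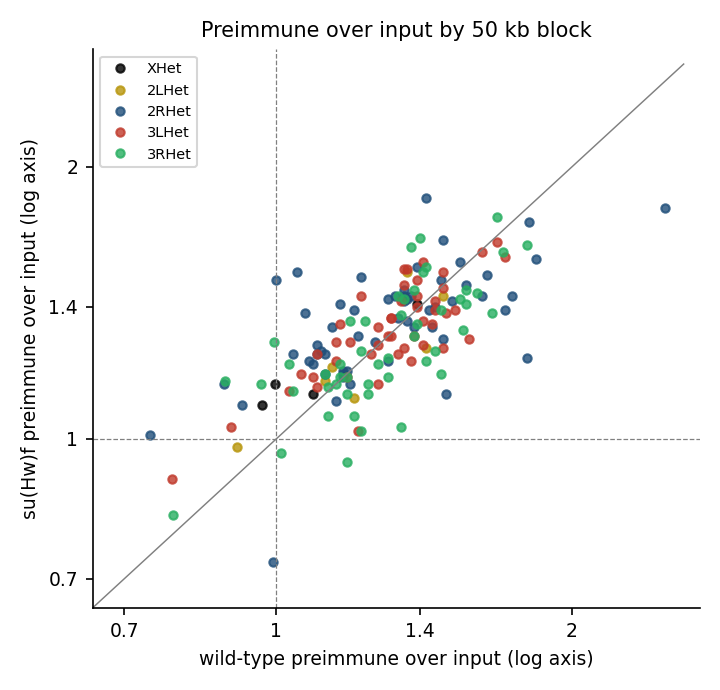
Preimmune over input in 50 kb blocks of 5 scaffolds, su(Hw)f (vertical log axis) against wild type (horizontal log axis), for blocks with at least 100 counts in each comparison. Each point is 1 block, the solid line marks equal ratios and dashed lines mark 1; most points lie above 1 on both axes, around medians of 1.30 and 1.31.

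At the scale of 1 kb, windows at least 2-fold apart with at least 20 counts were counted. In su(Hw)f, preimmune was higher in 895 of 3931 scaffold windows (22.8%) and lower in 109 (2.77%), against 7.35% and 3.33% over all major arm and scaffold windows. In wild type it was higher in 871 of 3889 (22.4%) and lower in 244 (6.27%), against 10.2% and 9.89%. Chromosome 4 had larger higher shares, 36.6% in su(Hw)f and 37.0% in wild type, with lower shares of 0.345% and 0.941%. With at least 50 counts, the higher shares on the scaffolds were 20.2% in su(Hw)f and 21.5% in wild type, against 7.02% and 9.91%. Among 3658 windows measured in both genotypes, 319 were higher in both, which is 39.7% of the higher calls in su(Hw)f and 42.3% of those in wild type, and 16 were called in opposite directions. Over all major arm and scaffold windows the windows higher in both made up 47.6% of the higher calls in su(Hw)f and 34.4% of those in wild type. Of those 117252 windows, 35 were called in opposite directions, relatively fewer than on the scaffolds. Ranked by the mean log2 ratio of the genotypes, the first window was 2RHet 1682001 to 1683000, with 27 preimmune reads and 2 input reads in su(Hw)f and 34 and 5 in wild type. Among the 5 highest, 3LHet 987001 to 988000 had the most su(Hw)f input reads, with 56 and 12 reads in su(Hw)f and 48 and 8 in wild type. At the low end, the first window was 3LHet 1875001 to 1876000. It had 19 preimmune reads and 25 input reads in su(Hw)f and 0 and 21 in wild type. Its su(Hw)f interval reached 1 (0.781, 0.407 to 1.48), as did the wild-type interval of the fourth window, 3LHet 2009001 to 2010000 (0.800, 0.302 to 2.02). The third, 2RHet 380001 to 381000, had 5 preimmune reads and 20 input reads in su(Hw)f and 3 and 32 in wild type. These extreme windows rest on few reads in one of their libraries.

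In windows of 10 kb, an extreme fell in the same place in both genotypes on 2 scaffolds. The same window of 3RHet, 2170001 to 2180000, was lowest in both genotypes, with 49 preimmune reads and 117 input reads in su(Hw)f (ratio 0.430, 0.302 to 0.606) and 21 and 90 in wild type (0.270, 0.159 to 0.438). The same window of 2LHet, 300001 to 310000, was highest in both, with 54 and 26 reads in su(Hw)f (2.13, 1.31 to 3.55) and 68 and 38 in wild type (2.07, 1.37 to 3.16). On 3LHet the lowest window was 770001 to 780000 in su(Hw)f, with 127 preimmune reads and 195 input reads, where wild type held 105 and 153.

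Scaffold DNA was lower in su(Hw)f than in wild type in both kinds of library. Over the 6 scaffolds the ratio of su(Hw)f to wild type was 0.778 (0.774 to 0.783) in preimmune and 0.774 (0.770 to 0.779) in input. Without 2RHet the ratios were 0.840 and 0.848. In input, the ratio was 0.882 (0.872 to 0.893) on 3RHet, 0.860 (0.837 to 0.884) on XHet, 0.837 (0.808 to 0.866) on 2LHet, 0.820 (0.811 to 0.829) on 3LHet and 0.662 (0.656 to 0.669) on 2RHet. Preimmune gave 0.859, 0.888, 0.856, 0.817 and 0.684 on the same scaffolds. Chromosome 4 lay at 0.732 in preimmune and 0.752 in input, below each scaffold except 2RHet.

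In blocks of 50 kb, su(Hw)f was below wild type in 140 of 167 blocks in preimmune (median 0.829) and in 150 of 168 in input (median 0.803). At 2-fold or more, 15 preimmune blocks and 14 input blocks were lower, against 0.662% of all blocks of the major arms and scaffolds in each kind of library (17 of 2568 in preimmune and 17 of 2569 in input), and none was higher, against 0.0779% in each. Of the lower blocks, 12 lay on 2RHet in each kind of library. The 2 kinds of library, which share none, ranked the blocks much alike, with r = 0.90 and rho = 0.82 over 167 blocks, and r = 0.82 on 2RHet without its first 10 blocks. Both ratios set the same strains against each other over the same sequence, so this is a description.

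**Figure D4:**
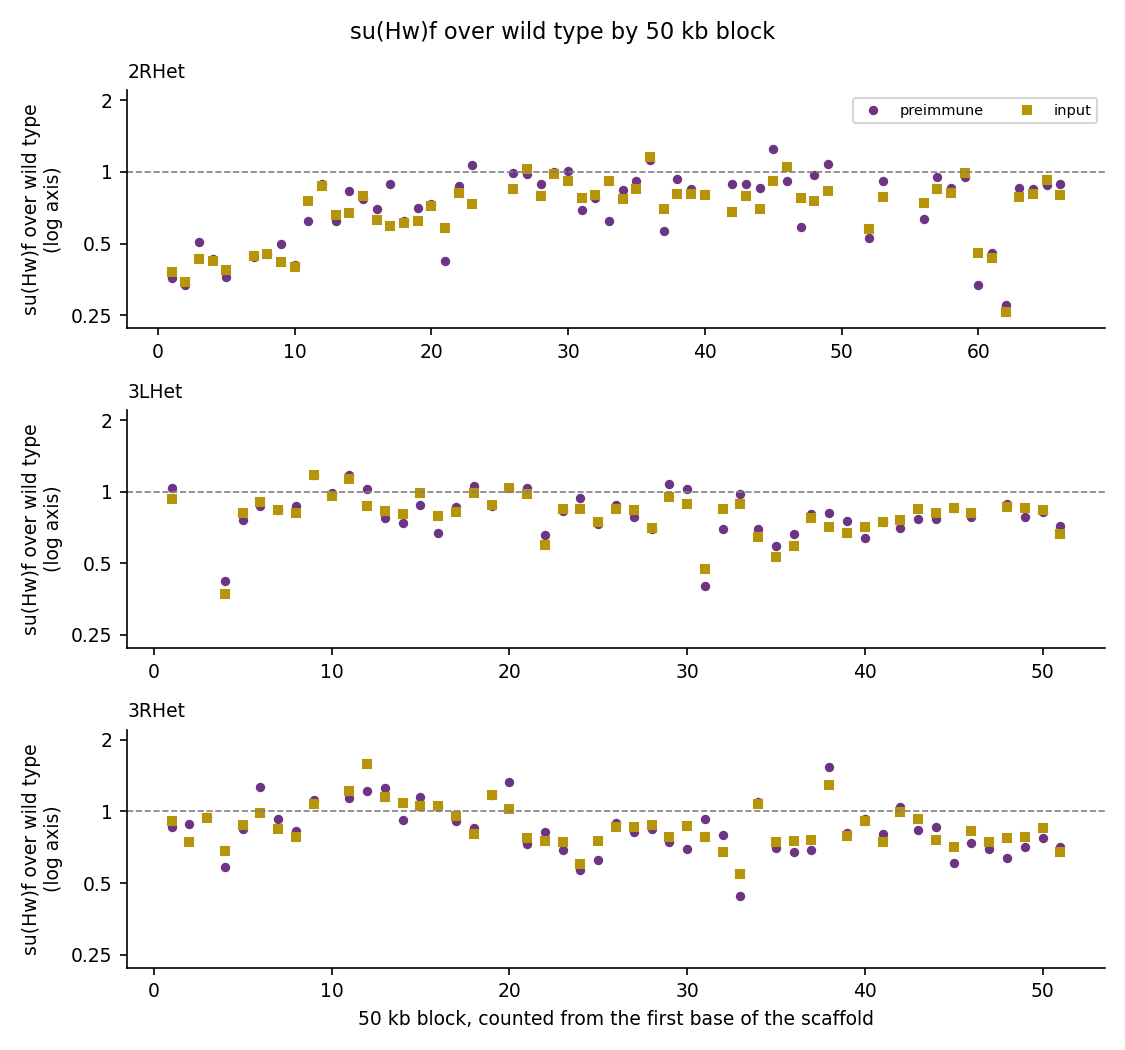
Ratio of su(Hw)f to wild type (vertical log axis) in consecutive 50 kb blocks of 2RHet, 3LHet and 3RHet (horizontal axis, block number), in preimmune (circles) and input (squares); blocks under 100 counts are not drawn. Blocks 1 to 10 of 2RHet lie at 0.334 to 0.508, and the dashed line marks 1.

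The first 500 kb of 2RHet formed a continuous stretch of low ratios, which was delimited after its values were seen and is given as a description. There su(Hw)f held 20672 preimmune reads and 16138 input reads, and wild type 30441 and 27111, although the su(Hw)f libraries are deeper. The ratio of su(Hw)f to wild type was 0.408 (0.401 to 0.415) in preimmune and 0.402 (0.395 to 0.410) in input, against 0.822 (0.813 to 0.830) and 0.791 (0.782 to 0.800) on the rest of the scaffold. Of its 10 blocks 9 held enough reads to be measured, at 0.334 to 0.508 in preimmune and 0.345 to 0.453 in input. The sixth block, 250001 to 300000, held 7 preimmune reads and 5 input reads in su(Hw)f and 0 and 3 in wild type.

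Within the stretch the ratio in input had a narrow range. In 10 kb windows with at least 50 counts it ran from 0.295 to 0.573 over 41 windows with a median of 0.396, while after the stretch 177 windows ran from 0.0327 to 2.16 with a median of 0.777. Preimmune ranged more widely, from 0.0257 to 0.680 over 44 windows of the stretch with a median of 0.402, and from 0.201 to 7.66 over 180 windows after it with a median of 0.813. Of the 1 kb windows with 20 counts, 181 of 287 (63.1%) were lower by 2-fold in preimmune and 226 of 279 (81.0%) in input, against 227 of 1047 (21.7%) and 167 of 1016 (16.4%) on the rest of 2RHet. In input, no 1 kb window of the stretch was higher in su(Hw)f by 2-fold.

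The stretch was set apart by its level in wild type. In windows covered in all 4 libraries, 1599 in the stretch and 5819 in the remainder of 2RHet without 2950001 to 3100000, su(Hw)f stood at 0.753 and 0.763 times its arm mean in preimmune and at 0.564 and 0.559 in input. Wild type stood at 1.71 in the stretch and 0.893 in the remainder in preimmune, and at 1.36 and 0.671 in input. Stretch over remainder was 0.987 in su(Hw)f preimmune, 1.01 (0.992 to 1.03) in su(Hw)f input, 1.91 (1.88 to 1.94) in wild-type preimmune and 2.03 in wild-type input. By the median window, stretch and remainder were equal in both su(Hw)f libraries, and the stretch was 2.14 times as high in wild-type preimmune and 1.86 times in wild-type input. In windows covered in any library, stretch over remainder was 0.958 in su(Hw)f preimmune, 0.975 in su(Hw)f input, 1.98 in wild-type preimmune and 1.96 in wild-type input. Wild-type input in this stretch was also above its highest 50 kb level on 3LHet (0.887) and 3RHet (0.976) in 8 of its 9 blocks, and its seventh block stood at 0.917. Preimmune over input in the stretch was 1.32 in su(Hw)f and 1.30 in wild type, against 1.34 and 1.29 on the rest of 2RHet.

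**Figure D5:**
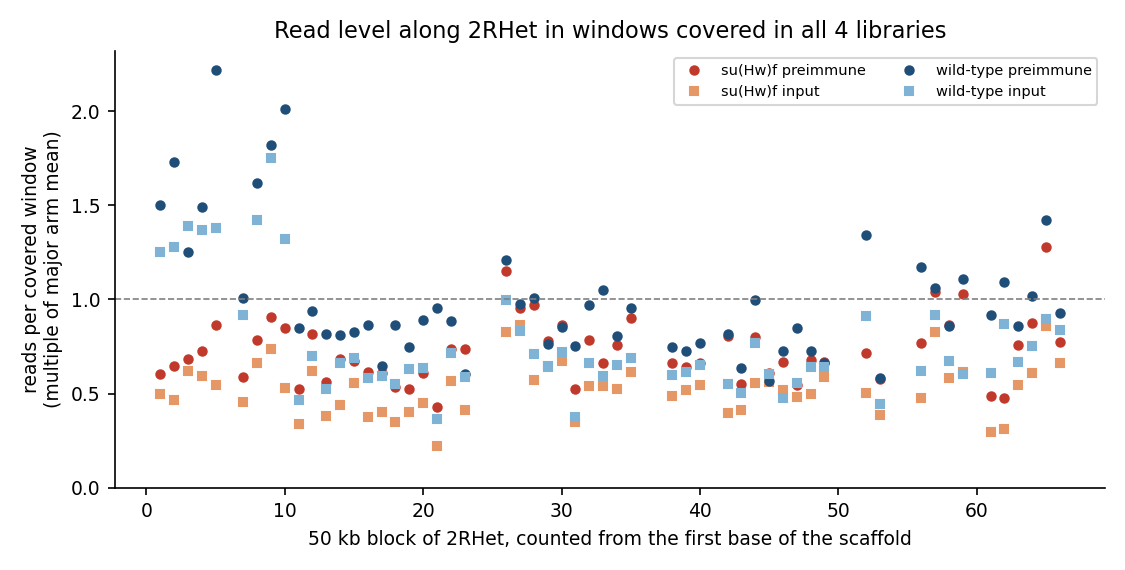
Mean reads per window covered in all 4 libraries along 2RHet, as a multiple of the major arm mean (vertical axis), by 50 kb block (horizontal axis) for blocks with at least 20 such windows. In blocks 1 to 10 the wild-type points stand at 0.917 to 2.22 and the su(Hw)f points at 0.454 to 0.905; further along, the median block stands at 0.683 in su(Hw)f preimmune, 0.522 in su(Hw)f input, 0.858 in wild-type preimmune and 0.642 in wild-type input.

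The edge of the stretch was not sharp at 1 kb. The window 497001 to 498000 held 154 preimmune reads and 152 input reads in su(Hw)f and 216 and 236 in wild type, ratios of 0.428 and 0.435. The next, 498001 to 499000, held 187 and 119 reads in su(Hw)f and 119 and 73 in wild type, ratios of 0.944 and 1.10. The window 499001 to 500000 was lower again, at 0.609 in preimmune and 0.342 in input. Beyond it the ratios were 0.668 and 0.671 at 500001 to 510000, 0.544 and 0.652 at 510001 to 520000, and 0.951 and 1.03 at 550001 to 560000.

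A second stretch on 2RHet, 2950001 to 3100000, was also low, and there su(Hw)f was below its own remainder. It held 1285 preimmune reads and 954 input reads in su(Hw)f and 2339 and 2026 in wild type, ratios of 0.330 (0.308 to 0.353) and 0.318 (0.294 to 0.344). In the 136 windows covered in all 4 libraries, su(Hw)f stood at 0.612 of its remainder in preimmune and 0.544 in input, and wild type at 1.12 and 1.13. In the 387 windows covered in any library, su(Hw)f stood at 0.373 in preimmune and 0.360 in input, and the wild-type direction turned, with 95% intervals of 0.911 to 0.990 in preimmune and 0.876 to 0.957 in input. The lowest 10 kb was 3060001 to 3070000, with 314 preimmune reads and 212 input reads in su(Hw)f and 939 and 715 in wild type, ratios of 0.201 and 0.200. The blocks on either side, 2900001 to 2950000 and 3100001 to 3150000, lay at 0.948 and 0.859 in preimmune.

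Single blocks on 3LHet and 3RHet went both ways. The block 3LHet 150001 to 200000 was low at 0.423 in preimmune and 0.370 in input, and rested on one stretch: 184001 to 191000 held 3 preimmune reads and 0 input reads in su(Hw)f and 341 and 292 in wild type. Without it the block lay at 1.02 (0.869 to 1.21) and 0.897 (0.745 to 1.08). The block 3LHet 1500001 to 1550000 was low at 0.400 and 0.474, and remained below 1 without its absent stretch, at 0.516 and 0.634. Higher in su(Hw)f were 3RHet 1850001 to 1900000, at 1.54 (1.45 to 1.63) in preimmune and 1.29 (1.20 to 1.38) in input, and 3RHet 550001 to 600000, at 1.22 (1.12 to 1.32) and 1.58 (1.45 to 1.72). In the block 550001 to 600000, 560001 to 570000 held 437 preimmune reads and 699 input reads in su(Hw)f and 99 and 195 in wild type. The block 3LHet 400001 to 450000 was 1.17 in both kinds of library.

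Over all scaffolds, 1 kb windows lower in su(Hw)f by 2-fold numbered 931 of 3978 (23.4%) in preimmune and 733 of 3830 (19.1%) in input, against 7.23% and 2.80% over all major arm and scaffold windows. Higher windows numbered 342 (8.60%) and 76 (1.98%), against 6.05% and 0.284%. On chromosome 4 the lower share was 23.2% in preimmune and 17.6% in input, near that of the scaffolds, and the higher share was 1.53% and 0.173%. The scaffold windows counted held fewer reads, with a median of 109 counts in the 2 preimmune libraries and 89 in the 2 inputs, against 276 and 271 over all major arm and scaffold windows, and the part of this in the shares was not tested. With at least 50 counts, lower windows came to 21.1% in preimmune and 14.9% in input, against 6.91% and 2.29%, and higher windows to 6.55% and 1.43%, against 5.90% and 0.210%. Without the first 500 kb of 2RHet, which held 287 of the windows counted in preimmune and 279 in input, the lower windows numbered 750 and 507. Of 3688 windows measured in both kinds of library, 382 were lower in both, which is 48.1% of the lower calls in preimmune and 54.6% of those in input, against 21.8% and 55.6% over all major arm and scaffold windows. A further 30 were higher in both and 25 were opposite. Over all major arm and scaffold windows, 226 of 117522 were higher in both and 38 were opposite, so opposite calls were relatively more frequent on the scaffolds. In input the lower share was 30.3% on 2RHet, 21.3% on 2LHet, 13.5% on 3RHet, 12.9% on 3LHet and 9.24% on XHet.

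Some scaffold windows held reads in one genotype and none or few in the other. Whether the DNA itself is missing there was not tested. A 1 kb window was taken as absent when preimmune and input together came to under 5% of what the other genotype held after scaling, itself with at least 40 reads. In su(Hw)f 24 of 3162 windows were absent (0.759%, against 0.139% on the major arms), in 14 stretches. In wild type 7 of 3276 were absent (0.214%, against 0.0794%), in 5 stretches. After 3LHet 184001 to 191000, the longest absences in su(Hw)f were 3LHet 2468001 to 2472000, with 6 preimmune reads and 1 input read where wild type held 198 and 172, and 3LHet 1519001 to 1523000, with 0 and 0 where wild type held 98 and 105. On 3RHet, 1830001 to 1832000 held 0 and 0 in su(Hw)f and 172 and 166 in wild type, an upper limit of 0.701% of the wild-type level.

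The reverse case was seen on 3RHet, 3LHet and 2RHet. The stretch 3RHet 813001 to 818000 held 100 preimmune reads and 77 input reads in su(Hw)f and 0 and 0 in wild type. The stretch 3LHet 562001 to 565000 held 192 and 119 in su(Hw)f and 0 and 0 in wild type. The window 2RHet 1752001 to 1753000 held 52 and 31 in su(Hw)f and 0 and 0 in wild type. On XHet none of 111 windows was absent in su(Hw)f and none of 109 in wild type, and on 2LHet none of 94 in either, numbers too small to set these scaffolds apart. No YHet window held enough reads to be judged.

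The 100 bp window with the most reads was not the same in all libraries on any scaffold. On 2RHet the first window of the scaffold, 1 to 100, was the fullest in both inputs, with 94 reads in su(Hw)f and 91 in wild type, and held 56 and 32 in preimmune. On XHet, 85301 to 85400 was the fullest in both inputs, with 81 reads in su(Hw)f and 35 in wild type, and held 21 and 6 in preimmune. On YHet, 215301 to 215400 was the fullest in wild-type preimmune and in both inputs. The preimmune libraries had fullest windows of their own on the other scaffolds. On 2RHet these were 3235101 to 3235200 in su(Hw)f, with 109 preimmune reads and 43 input reads, and 207801 to 207900 in wild type, with 84 and 24. On 3LHet the fullest wild-type preimmune window, 2436801 to 2436900, held 79 reads beside 14 in wild-type input and 0 in both su(Hw)f libraries.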

How the data were processed

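The deposited values are counts of reads per 100 bp window, 1 wiggle file per library per the file headers, not scaled by the authors. Genome build dm3 and Partek 6.5 are named per the submitters' processing notes. For the aligner, for duplicate removal and for multiply matching reads, details were not given in the sources used here. These bear on the scaffolds: dropping multiply matching reads leaves repeats at 0, and duplicates widen scatter. The 2 immunoprecipitation libraries are not analysed here.

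Counts were summed to 1, 10 and 50 kb in Python 3.11.15 with numpy 2.4.6 and scipy 1.17.1, and scaled to the reads on X, 2L, 2R, 3L, 3R and 4. Ratios carry 95% Clopper-Pearson conditional intervals. Windows of 1 kb were counted at 2-fold with at least 20 counts, without a test. Calling was tested on simulated data. Regions were named by rule: the longest empty runs, the fullest windows, the 10 kb windows of highest and lowest ratio with at least 50 counts, the 5 highest and lowest 1 kb windows, the 5 longest absent stretches and YHet windows with at least 3 reads. The scaffolds and rules were chosen with earlier results of these data known. The 50 kb blocks, the 2RHet stretches, the island classes and the alternatives without 2RHet were chosen after seeing the values. No sequence is shown, because no dm3 genome was used here.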

Additional observations from a re-analysis of the deposited data

Results flagged for a closer look

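Among 48 named windows of 1 or 10 kb, preimmune over input went in opposite directions in the genotypes, with both counting intervals clear of 1, in 3 windows of 10 kb, and the difference was not tested. By the same measure 14 of the 644 scaffold windows of 10 kb with at least 50 counts in each genotype were opposite; 2RHet 3250001 to 3260000 is not among the 644, since wild type held too few reads there. At 2RHet 360001 to 370000, su(Hw)f held 62 preimmune and 104 input reads (ratio 0.613, 0.440 to 0.847) and wild type 379 and 154 (2.85, 2.35 to 3.45), so su(Hw)f over wild type was 0.215. At 2RHet 3250001 to 3260000, su(Hw)f held 51 and 23 reads (2.28, 1.37 to 3.91) and wild type 4 and 19 (0.243, 0.0602 to 0.732), a ratio of 9.36. At 3LHet 730001 to 740000, su(Hw)f held 60 and 19 reads (3.25, 1.91 to 5.76) and wild type 15 and 35 (0.495, 0.251 to 0.931), a ratio of 6.55. All 3 had been named for an extreme ratio in 1 or more of the 4 comparisons.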

How the results depend on the processing

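No paired analysis was possible because each group has a single library, with no replicate to leave out or to block on. The direction of all 4 ratios over the 6 scaffolds held under every alternative run. In the order su(Hw)f preimmune over input, wild-type preimmune over input, su(Hw)f over wild type in preimmune and in input, scaling by the median 1 kb ratio gave 1.18, 1.28, 0.754 and 0.811. That scaling put the large arms at 0.905 in su(Hw)f and 0.983 in wild type for preimmune over input. Removing the 1% fullest windows gave 1.32, 1.33, 0.760 and 0.764. Windows covered in all 4 libraries gave 1.33, 1.33, 0.802 and 0.797. Scaling to all reads gave 0.784 when su(Hw)f preimmune was set over wild-type preimmune. Without the first 500 kb of 2RHet, chosen after seeing the data, the ratio of su(Hw)f to wild type was 0.834 for preimmune and 0.831 for input. Without 2RHet it was 0.840 and 0.848, and su(Hw)f preimmune over input was 1.29. Ratios of the single scaffolds other than YHet kept their direction in all 80 recomputations, although 45 left the counting interval.

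In windows of 5 kb, preimmune was higher than input in 135 and lower in 18 in su(Hw)f, and higher in 160 and lower in 24 in wild type, while su(Hw)f was higher than wild type in 38 and lower in 231 in preimmune and higher in 20 and lower in 203 in input. Fewer windows exist at that size. The share over all major arm and scaffold windows is not given here for 5 kb, so these counts cannot be read as an excess. With at least 50 counts, preimmune was lower in 57 of 3054 windows of 1 kb in su(Hw)f (1.87%) and 134 of 2875 in wild type (4.66%). Over all major arm and scaffold windows these shares were larger, at 3.29% and 9.85%. At that minimum su(Hw)f was higher than wild type in 205 windows in preimmune (6.55%, against 5.90%) and 40 in input (1.43%, against 0.210%). It was lower in 415 in input (14.9%, against 2.29%). Fewer windows pass that minimum. Thinned shares of empty windows were 71.6% in su(Hw)f preimmune, 71.2% in su(Hw)f input and 66.7% in wild-type input. Depth limits YHet and the 1 kb windows, and no value here carries the spread between animals or preparations.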
